A study of Mus musculus with 868 samples.

Results

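The hair keratin-associated protein genes of mouse skin were taken as every row of the skin count table whose symbol begins with Krtap, which gave 53 of 24421 gene symbols. Of these, 52 had at least 1 count in skin and 1, Krtap13, had none. The study profiled the tissues of C57BL/6N mice given drugs, control vehicles or nothing, by sequencing the 3′ ends of messenger RNA, and its series title names the prediction of human clinical outcomes as the aim. The values used here come from 36 skin libraries, 2 in each of 18 groups, and from the same rows in 23 other tissues (832 libraries). Following the rule that defined the gene set, groups were compared only within 3 library sets.

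Set A held untreated mice (labelled WT), mice given FivePercentSucrose (5% sucrose, called Sucrose here), APAP with tissue taken at 2 h, and Sofosbuvir, an antiviral drug. Set B held the bisphosphonates Alendronate and Risedronate and the antipsychotics Asenapine, Lurasidone and Olanzapine. Set C held the vehicle of 0.5% CMC and 0.25% Tween80 (called CMCTween here), the antipsychotics Aripiprazole and Clozapine, the cytotoxic drug Cisplatin, Dox at 2 mg/mL, EMPA given orally for 2 wk, Lenalidomide, Repatha and Teriparatide, a parathyroid hormone fragment. All groups share the strain C57BL/6N, and no group carries a genetic change in the labels. Age, body site of the skin and stage of the hair cycle are not stated in the labels used here. The labels number replicates without saying that they are separate animals, so the p-values measure the spread between these libraries, which may in part be technical.

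Keratin-associated proteins are small proteins, rich in cysteine or in glycine and tyrosine, that fill the space between the keratin filaments of the hair shaft and cross-link them. Their genes are switched on late, in the cortex and cuticle cells of a growing follicle, after the hair shaft keratins. Follicles of adult mouse skin alternate between growth, regression and rest, and resting follicles make little of these transcripts. The transcription factors HOXC13, FOXN1 and LEF1 are known for their roles in the hair matrix and shaft.

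In the GENCODE M21 annotation of mm10, 22 members lie on chromosome 11 between 99550130 and 99993994 and 23 on chromosome 16 between 88610705 and 89571183. A further 5, all of the Krtap5 family, lie on chromosome 7 between 142174535 and 142304594. The remaining 3 lie on chromosome 10 between 77720599 and 77837252, inside the gene Tspear. By family name, 14 members are high-glycine-tyrosine, 15 high-sulfur and 17 ultrahigh-sulfur proteins, and 7 (the Krtap10, Krtap12, Krtap16 and Krtap31 families) were left unassigned.

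The promoters of the member with the most reads, of 3 neighbours at the start of the chromosome 11 cluster (1 of them read in every library) and of the member at its end are printed, because the results turn on these genes. Each run is the 250 bases before the RefSeq transcript start (GRCm38.p6), read 5′ to 3′ along the gene. Capitals mark the TATA box letters TATAAA and matches to the HOXC13 letters listed after the sequences. The run of Krtap8-1, a high-glycine-tyrosine gene, is chr16:89487953-89488202, that of Krtap3-3 chr11:99550864-99551113, that of Krtap3-2 chr11:99556854-99557103, that of Krtap3-1 chr11:99566631-99566880 and that of Krtap17-1 chr11:99993995-99994244. All 5 are on the minus strand.
Krtap8-1: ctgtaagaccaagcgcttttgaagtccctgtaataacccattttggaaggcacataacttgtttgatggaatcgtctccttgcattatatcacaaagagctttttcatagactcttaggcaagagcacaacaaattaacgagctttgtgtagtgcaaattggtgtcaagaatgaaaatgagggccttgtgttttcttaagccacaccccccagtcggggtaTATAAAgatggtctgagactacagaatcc
Krtap3-3: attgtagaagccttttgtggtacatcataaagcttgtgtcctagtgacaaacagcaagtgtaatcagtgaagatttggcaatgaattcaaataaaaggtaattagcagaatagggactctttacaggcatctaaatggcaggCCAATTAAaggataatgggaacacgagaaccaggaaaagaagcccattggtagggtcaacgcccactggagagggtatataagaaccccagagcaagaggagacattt
Krtap3-2: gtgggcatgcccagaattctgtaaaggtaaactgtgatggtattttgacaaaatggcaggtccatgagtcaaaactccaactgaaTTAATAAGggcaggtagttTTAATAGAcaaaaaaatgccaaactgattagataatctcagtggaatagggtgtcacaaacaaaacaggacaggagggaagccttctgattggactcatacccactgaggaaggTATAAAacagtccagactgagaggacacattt
Krtap3-1: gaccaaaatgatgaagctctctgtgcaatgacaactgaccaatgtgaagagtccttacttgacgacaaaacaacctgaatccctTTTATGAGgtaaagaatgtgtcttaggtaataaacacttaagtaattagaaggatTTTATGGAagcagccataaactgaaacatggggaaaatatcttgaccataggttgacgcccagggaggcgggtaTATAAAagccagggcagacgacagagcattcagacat
Krtap17-1: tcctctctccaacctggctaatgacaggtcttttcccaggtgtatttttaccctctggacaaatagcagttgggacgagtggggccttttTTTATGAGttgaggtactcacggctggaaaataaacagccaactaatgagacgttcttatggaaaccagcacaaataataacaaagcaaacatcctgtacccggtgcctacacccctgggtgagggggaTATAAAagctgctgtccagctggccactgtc

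RefSeq promoters were matched for 48 of the 53 members. TATAAA, on either strand, was in 38 of 48 member promoters (79.2%) and in 12.4% of 32851 mouse promoters of the same length. On the gene's own strand and starting 21 to 40 bases before the transcript start, it was in 28 of 48 (58.3%), against 1.99% of all promoters. In the runs printed it starts 29 bases before the start in Krtap8-1, 32 in Krtap3-2, 37 in Krtap3-1 and 31 in Krtap17-1. These letters are not in the window of Krtap3-3, whose run holds tatataag near its end. Other spellings of the TATA box were not searched. The HOXC13 letters (TTAATNAA, TTAATNAG, TTAATNGA, TTAATNGG, TTTATNAA, TTTATNAG, TTTATNGA, TTTATNGG, both strands) were in 25 of 48 (52.1%), against 17.2% of all promoters. The LEF1/TCF letters (CTTTGAA or CTTTGTT or CTTTGAT or CTTTGTA, both strands) were in 16 of 48 (33.3%), against 14.8%. The HOXC13 set includes TTTATNAA, TTTATNAG, TTTATNGA and TTTATNGG, each of which holds TATAAA on the other strand where N is A. The HOXC13 and TATAAA shares are therefore not independent of each other. These are matches of letters only, in genes that lie close together and partly arose by duplication, so the members are not independent sequences.

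Skin libraries held 638084 to 12811780 counts, with the 2 untreated libraries the deepest. Members received 47274 counts in skin in all. Of these, 41523 (87.8%) were in 1 library, CMCTween replicate 3. This library stands apart: each of the 52 detected members had its highest level there. Its partner, CMCTween replicate 4, is the other library of the set C control group, so the set C counts, medians and folds against CMCTween are given with both libraries and with replicate 4 alone. Over the 11134 genes with a mean of at least 5 CPM, which scales each library's counts to the same total, 739 (6.64%) were highest in this library, among them 38 of 38 members. Reads were not divided by transcript length, because a 3′-end library is meant to give reads per transcript end, so levels of different genes are compared as read shares only.

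The members together took 37849 CPM in CMCTween replicate 3, or 3.78% of its counts (95% exact binomial interval 3.75 to 3.82%, counting error only). The same vehicle gave 294 CPM in replicate 4, 129 times less. The median of the 35 libraries other than CMCTween replicate 3 was 62.7 CPM, and the next highest of all, Risedronate replicate 1, had 1547 CPM. The highest library and a far lower one thus came from the same treatment.

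In set A the summed member level was 56.9 and 45.3 CPM in the 2 WT libraries, 83.2 and 85.9 CPM with Sucrose, 97.7 and 124.7 CPM with APAP, and 55.8 and 144 CPM with Sofosbuvir. Both APAP libraries lay above all 4 WT and Sucrose libraries, whereas of the Sofosbuvir libraries 1 lay among them and 1 above. In set B the level was 47.0 and 56.8 CPM with Alendronate, 1547 and 59.9 CPM with Risedronate, 70.0 and 67.3 CPM with Asenapine, 39.9 and 30.9 CPM with Lurasidone, and 88.4 and 651 CPM with Olanzapine. Risedronate replicate 1 and Olanzapine replicate 2 were high, and their partners overlapped the other drugs or lay close to them. In set C the level was 37849 and 294 CPM with CMCTween, 25.7 and 21.6 CPM with Aripiprazole, 116 and 46.0 CPM with Cisplatin, 62.7 and 38.8 CPM with Clozapine, and 69.2 and 72.2 CPM with Dox. It was 29.4 and 26.3 CPM with EMPA, 32.6 and 155 CPM with Lenalidomide, 26.1 and 43.0 CPM with Repatha, and 107 and 923 CPM with Teriparatide. Teriparatide replicate 2 was above CMCTween replicate 4, and the other 15 drug libraries of set C were below it.

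The libraries thus fell into 5 above 200 CPM and 31 between 21.6 and 155 CPM. Within a treatment, the higher library exceeded the lower by a median of 1.45 times over the 18 groups, with a lowest ratio of 1.03. The ratio was above 2 in 7 groups and above 5 in 4: CMCTween, Risedronate (25.8 times), Teriparatide (8.62 times) and Olanzapine (7.37 times). In whole skin, fewer cells of a type and less RNA per cell cannot be told apart.

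**Figure D1:**
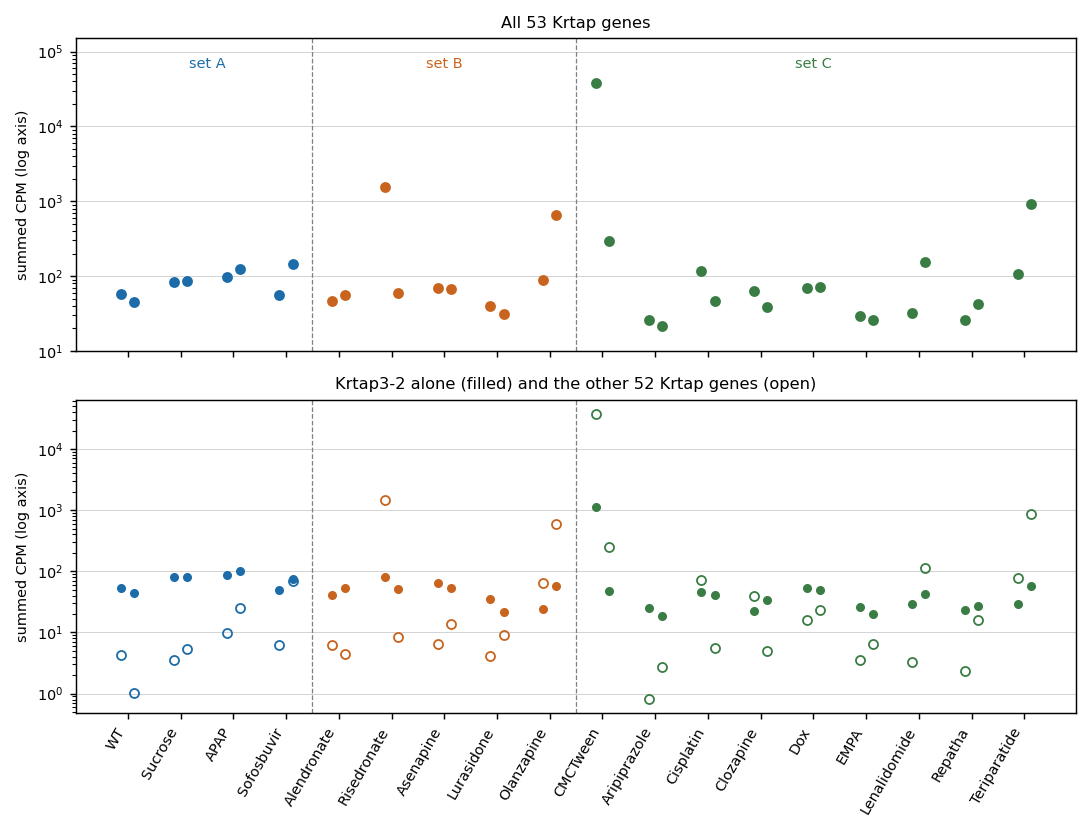
Summed level of the Krtap genes in each of the 36 skin libraries, in CPM on a log axis, by treatment and library set; the lower panel splits Krtap3-2 (filled) from the other 52 genes (open). CMCTween replicate 3 sits at 37849 CPM, and 31 of the 36 libraries lie between 21.6 and 155 CPM.

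Krtap3-2, a high-sulfur member at chr11:99555823-99556853, was the only member with counts in all 36 libraries (Krtap3-3 had counts in 32). In the 35 libraries other than CMCTween replicate 3 it ranged from 18.9 CPM (Aripiprazole replicate 4) to 99.96 CPM (APAP replicate 2), with a median of 45.3 CPM. In CMCTween replicate 3 it reached 1113 CPM, 11.1 times the next highest. Its printed promoter holds TATAAA and a pair of HOXC13 matches, and so does that of its neighbour Krtap3-1, whose median over the same 35 libraries was 0 CPM.

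In set A Krtap3-2 was at 52.6 and 44.3 CPM in WT, 79.6 and 80.5 CPM with Sucrose, 87.9 and 99.96 CPM with APAP, and 49.5 and 74.6 CPM with Sofosbuvir. In set B it was at 40.7 and 52.4 CPM with Alendronate, 79.3 and 51.3 CPM with Risedronate, 63.5 and 53.5 CPM with Asenapine, 35.7 and 21.9 CPM with Lurasidone, and 23.97 and 58.2 CPM with Olanzapine. In set C it was at 1113 and 47.7 CPM with CMCTween, 24.9 and 18.9 CPM with Aripiprazole, 45.3 and 40.4 CPM with Cisplatin, 22.7 and 33.8 CPM with Clozapine, 53.3 and 48.6 CPM with Dox, 25.8 and 19.9 CPM with EMPA, 29.3 and 42.7 CPM with Lenalidomide, 23.7 and 26.9 CPM with Repatha, and 28.9 and 57.2 CPM with Teriparatide. Outside CMCTween replicate 3 its range was narrow beside that of the other members. Its share of a library's member counts ran from 2.94% in CMCTween replicate 3 to 96.8% in Aripiprazole replicate 2 and 97.8% in WT replicate 4, and was 27.03% in Teriparatide replicate 1 and 27.1% in Olanzapine replicate 1.

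The other 52 members together were at 36736 CPM in CMCTween replicate 3. Over the 35 remaining libraries they ranged from 0.830 CPM (Aripiprazole replicate 2) to 1468 CPM (Risedronate replicate 1), with a median of 8.55 CPM. Taken without Krtap3-2, the partners differed more: Lenalidomide held 3.26 and 113 CPM, Cisplatin 71.0 and 5.58 CPM, Sofosbuvir 6.30 and 69.5 CPM, and Risedronate 1468 and 8.55 CPM.

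Among the high-glycine-tyrosine members, which make up most of the chromosome 16 cluster, Krtap8-1 (chr16:89487379-89487952) had the most reads of all members. It was at 4192 CPM in CMCTween replicate 3 and 29.7 CPM in replicate 4. It was at 160 CPM in Risedronate replicate 1 and 2.14 CPM in replicate 2, at 113 and 1.45 CPM in Teriparatide replicates 2 and 1, and at 70.2 and 7.49 CPM in Olanzapine replicates 2 and 1. It had counts in 17 of the 35 libraries other than CMCTween replicate 3 and a median of 0 CPM over them. Krtap22-2 was at 2174 CPM, Krtap19-9b at 1789 CPM, Krtap6-5 at 1563 CPM and Krtap6-1 at 1470 CPM in the same library, and none of these 4 was above 67.7 CPM in any other.

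Among the high-sulfur members, Krtap3-3 (chr11:99550130-99550865) was at 3313 CPM in CMCTween replicate 3 and 23.4 CPM in replicate 4. It was at 194 CPM in Risedronate replicate 1, 105 CPM in Olanzapine replicate 2 and 83.2 CPM in Teriparatide replicate 2, and between 0 and 16.6 CPM in the other 31 libraries. Its neighbour Krtap3-1 (chr11:99566027-99566630) was at 1751 CPM in CMCTween replicate 3 and at most 80.5 CPM elsewhere. Krtap11-1, at the far end of the chromosome 16 cluster (chr16:89570176-89571183), was at 1518 CPM and at most 72.3 CPM elsewhere. Krtap15 was at 2501 CPM and at most 57.2 CPM elsewhere. It overlaps Krtap14 on the opposite strand, and the strand setting of the counting is not given in the sources used here, so their reads cannot be told apart with certainty.

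The ultrahigh-sulfur members had fewer reads. Krtap4-1, the highest of them by mean, was at 916 CPM in CMCTween replicate 3 and at most 31.5 CPM elsewhere. Krtap17-1 (chr11:99993234-99993994), a cuticle gene at the end of the chromosome 11 cluster, was at 255 CPM in CMCTween replicate 3, 18.7 CPM in Risedronate replicate 1, 8.32 CPM in Teriparatide replicate 2 and 4.69 CPM in CMCTween replicate 4. Krtap5-5, the highest of the chromosome 7 members, was at 175 CPM and at most 16.3 CPM elsewhere, and Krtap10-4, the highest on chromosome 10, at 376 CPM and at most 29.2 CPM elsewhere. Of the unassigned members the highest was Krtap16-3, at 1468 CPM and at most 44.3 CPM elsewhere.

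All 4 chromosomal clusters and all 3 classes were therefore highest in the same library. Across the 46 members seen in any other library, the level in CMCTween replicate 3 was 8.44 (Krtap4-9) to 49.98 (Krtap5-4) times that in the next highest library, with a median of 22.8 times. The other 6 detected members (Krtap9-1, Krtap20-2, Krtap5-1, Krtap4-13, Krtap27-1 and Krtap9-5) had counts in that library alone, from 1 to 23 counts each. Krtap4-9, Krtap5-4 and these 6 are named because their values single them out. For 9 members some 50-base window of the last 300 bases of the transcript is shared with another gene. Krtap4-13, whose windows are all shared with Gm11554 and Gm11569, is uncertain for that reason.

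**Figure D2:**
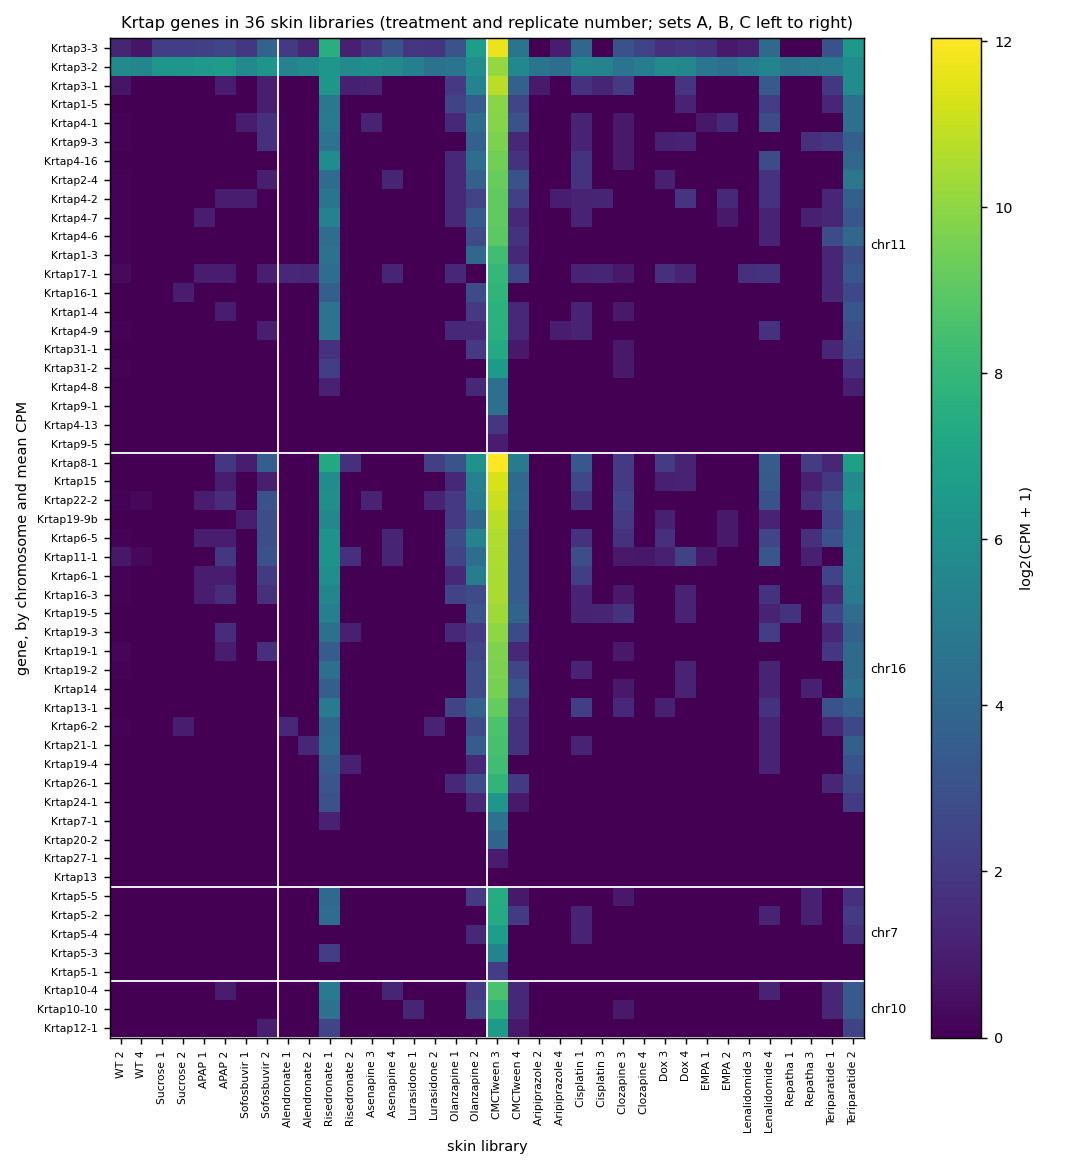
Level of each of the 53 Krtap genes in each of the 36 skin libraries, as log2(CPM + 1), with genes grouped by chromosome and ordered by mean CPM, and libraries by set. The column of CMCTween replicate 3 is the brightest for all 52 detected genes, Risedronate replicate 1, Olanzapine replicate 2 and Teriparatide replicate 2 are lighter than their neighbours, and the row of Krtap3-2 is light in all columns.

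The 4 highest libraries differed in the mix of members. High-glycine-tyrosine members took 42.8% of the member reads in CMCTween replicate 3, 34.01% in Risedronate replicate 1, 39.9% in Teriparatide replicate 2 and 34.9% in Olanzapine replicate 2. High-sulfur members took 36.8%, 40.6%, 41.9% and 50% in the same order, and ultrahigh-sulfur members 13.3%, 17.7%, 11.3% and 11.7%. In Risedronate replicate 1 the Krtap5 family was at 7.82% of its level in CMCTween replicate 3 and the Krtap10 family at 8.41%, whereas Krtap14 was at 1.52%. The order of the 53 members by level was close to that of CMCTween replicate 3 in Teriparatide replicate 2 (Spearman rho 0.97 across members, as a description), CMCTween replicate 4 (0.91), Risedronate replicate 1 (0.90) and Olanzapine replicate 2 (0.89). Genes are not independent replicates, and lowly counted members tie at 0.

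Other genes of the growing follicle were also highest in CMCTween replicate 3, and hair shaft keratins were high in the same 5 libraries as the members. The sums of the other lists did not single out all 5. CMCTween replicate 4 held 622 CPM of inner root sheath genes and 204 CPM of regulators and shaft proteins. That was less than Sofosbuvir replicate 2, with 836 and 254 CPM. Gata3, which was not highest in CMCTween replicate 3, made up 414 of the 622 CPM in CMCTween replicate 4. Of 15 hair shaft keratins in the table, which form the filaments the Krtap proteins embed, all 15 were highest in CMCTween replicate 3. Their sum was 14788 CPM there, against 5.04 to 744 CPM in the 35 others (median 30.999 CPM). Krt81 was at 4095 CPM there, 191 CPM in Risedronate replicate 1, 103 CPM in Olanzapine replicate 2, 98.8 CPM in Teriparatide replicate 2, and a median of 0 CPM over the 35 others. Krt31, an acidic hair keratin, was at 1939 CPM and Krt85, a basic keratin of the early hair matrix and cuticle, at 1402 CPM, with medians of 1.18 and 0.830 CPM over the others.

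Of 11 inner root sheath and companion layer genes, 9 were highest in CMCTween replicate 3, and their sum was 26157 CPM against 268 to 4081 CPM elsewhere (median 435 CPM). Tchh, trichohyalin of the inner root sheath and medulla, was at 12436 CPM there and 1439 CPM in Risedronate replicate 1, and Krt25 at 5592 and 1024 CPM. Of 13 regulators and other shaft proteins 11 were highest there, with a sum of 8964 CPM against 98.7 to 1099 CPM (median 153 CPM). Hoxc13 was at 253 CPM against at most 63.0 CPM elsewhere, Foxn1 at 91.2 against at most 25.7 CPM, Lef1 at 85.7 against at most 19.8 CPM, and S100a3, a calcium-binding protein of the hair cuticle, at 1914 against at most 189 CPM. Msx1 and Shh were not highest there, Shh being at 3.65 CPM in CMCTween replicate 3 and 4.67 CPM in Risedronate replicate 1.

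Pigment and division genes moved less. Of 10 melanocyte pigment genes 9 were highest in CMCTween replicate 3, with a sum of 729 CPM against 55.2 to 264 CPM (median 112 CPM). Of 8 cell division genes 6 were highest there, with a sum of 731 CPM against 68.3 to 511 CPM (median 204 CPM). Mki67, a marker of dividing cells, was at 211 CPM there, 107 CPM in Risedronate replicate 1 and a median of 38.7 CPM over the 35 others.

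Other compartments of the skin were not high in CMCTween replicate 3. Its sum over 9 bulge and resting follicle genes was 2467 CPM against 2879 to 11480 CPM (median 4682 CPM), and its sum over 8 epidermal genes was 5769 CPM against 6125 to 23597 CPM (median 11075 CPM). Both were the lowest of the 36 libraries. Its 5 sebaceous genes summed to 627 CPM against 475 to 3223 CPM, the second lowest. Its 6 adipocyte genes summed to 276 CPM against 39.2 to 926 CPM, its 6 skeletal muscle genes to 2529 CPM against 438 to 25018 CPM, its 5 fibroblast genes to 20982 CPM against 4024 to 84044 CPM, and its 4 leukocyte genes to 247 CPM against 86.8 to 718 CPM. These 4 lay inside the range of the other libraries. Krt15 of the bulge was at 1622 CPM against 1993 to 10756 CPM, and Krt10 of the upper epidermis at 2341 CPM against 3309 to 12570 CPM. These had the most reads of their lists, and gene by gene 1 of 9 bulge and 2 of 8 epidermal genes were lowest there. Sox9 (489 CPM), Lhx2 (102 CPM) and Lgr5 (30.1 CPM) of the bulge list exceeded their medians over the 35 others (330, 61.9 and 19.99 CPM). So did Ivl of the epidermal list, at 167 against 91.5 CPM. The other genes of both lists lay at or below theirs. Epidermal keratins were present in all libraries, as skin requires, and Flg and Krt87 are not in the table. The part of tissue composition in the level of the members was not tested.

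**Figure D3:**
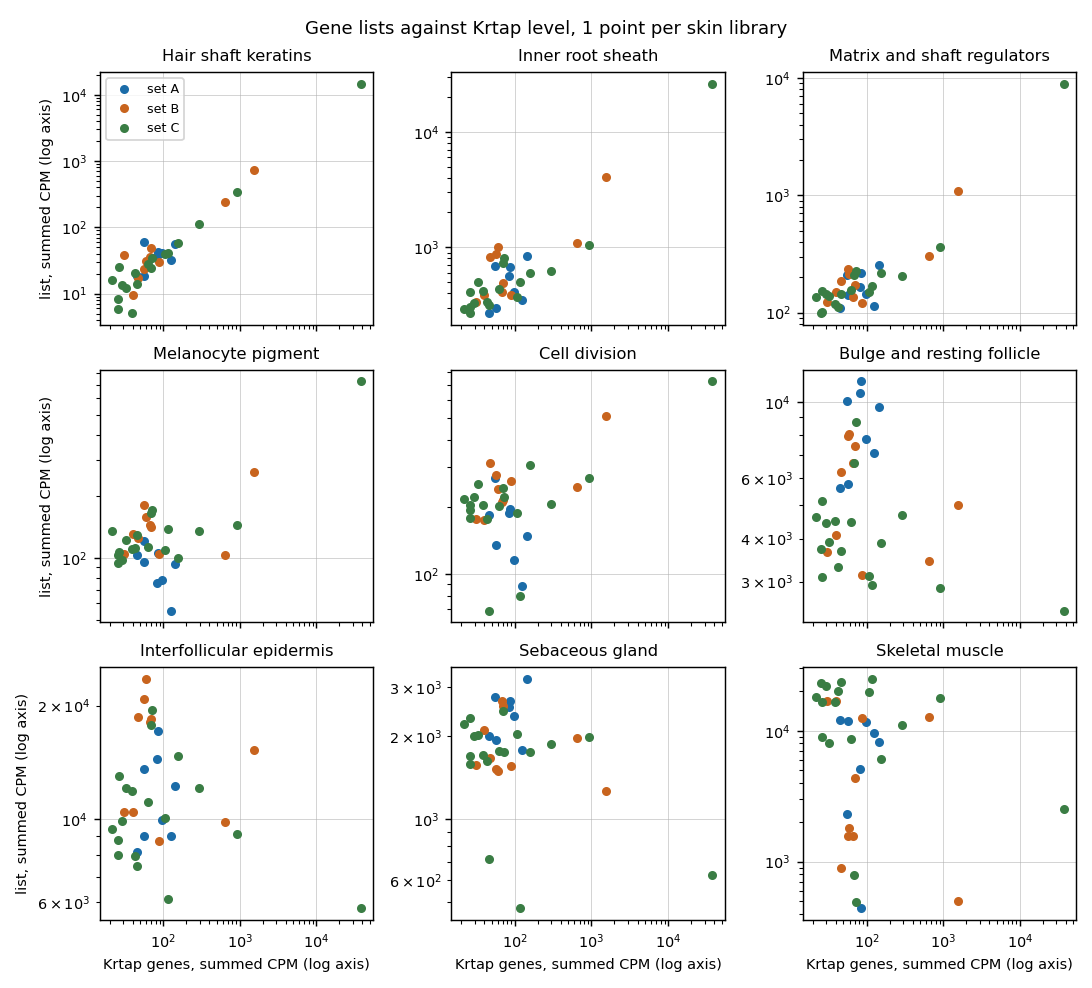
Summed CPM of 9 gene lists against the summed CPM of the Krtap genes, 1 point for each of the 36 skin libraries, both axes on a log scale, coloured by library set. Hair shaft keratins are highest in the same libraries as the Krtap genes, up to CMCTween replicate 3 at the right, where the bulge and epidermal sums are the lowest of the 36.

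Risedronate replicate 1 differed from the other high libraries in the balance of these lists. As a percentage of CMCTween replicate 3, it held 4.09% for the members, 5.03% for hair shaft keratins, 15.6% for inner root sheath genes, 12.3% for the regulators, 36.2% for pigment genes and 69.9% for division genes. Teriparatide replicate 2 held 2.44%, 2.28%, 4.03%, 4.07%, 19.8% and 36.7% in the same order, and Olanzapine replicate 2 held 1.72%, 1.64%, 4.12%, 3.40%, 14.1% and 33.5%. Krt25 was at 1024 CPM in Risedronate replicate 1 but 176 CPM in Teriparatide replicate 2 and 173 CPM in Olanzapine replicate 2, whereas Krtap8-1 was at 160, 113 and 70.2 CPM. Krt25 was at 3.21 CPM in Risedronate replicate 2, 23.1 CPM in Teriparatide replicate 1 and 20.97 CPM in Olanzapine replicate 1, against a median of 1.46 CPM over the libraries other than CMCTween replicate 3. The summed inner root sheath level did not separate the libraries in the same way. It was 1009 CPM in Risedronate replicate 2, close to the 1053 CPM of Teriparatide replicate 2 and the 1078 CPM of Olanzapine replicate 2. Gata3 made up 860, 256 and 329 CPM of these sums in the same order, whereas Tchh was at 17.1, 369 and 367 CPM.

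The genes whose pattern over the 36 libraries was most like the summed members were sought among 11096 genes by Pearson correlation of log2(CPM + 1), after centring each library set. The closest were Krt33a (0.98), Krt31 (0.97), Gm10229 (0.97), Gm11562 (0.97), Gm11567 (0.97), Krt34 (0.96), Krt86 (0.96), Krt33b (0.96), Tchh (0.96) and 5430421N21Rik (0.96). Without CMCTween replicate 3 the values were 0.96 for Krt33a, 0.94 for Krt31, 0.94 for Gm10229, 0.94 for Gm11562, 0.93 for Gm11567 and 0.90 for 5430421N21Rik. Krt81 then entered the first 10, and 5430421N21Rik fell to rank 14. The libraries share depth and reads with the members, and the correlations are descriptions.

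Comparisons within the sets used edgeR's quasi-likelihood test on the counts, with p-values adjusted by Benjamini-Hochberg over all 11274 genes tested. Of the 53 members 36 passed the filter on low counts and 17 did not. Since most of the 36 passed through the few libraries in which they were high, counts and medians over them describe those libraries and support nothing about the members that were not tested.

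In set A, no member passed an adjusted p of 0.05 for APAP or Sofosbuvir against WT and Sucrose, or for Sucrose against WT. Of the 36 members tested, only 4 (APAP), 8 (Sofosbuvir) and 4 (Sucrose) had more than 3 counts on either side of the comparison. The others had too few counts to be called, so the absence of calls says nothing about them. The estimate of spread was shared by all 18 groups, the CMCTween libraries included. Over all genes tested, APAP raised 2.16% and lowered 1.88%, Sofosbuvir raised 4.21% and lowered 3.93%, and Sucrose raised 3.58% and lowered 8.30%. At an unadjusted p of 0.05 no member passed either, and DESeq2 called 0. At that p 8.2% of all genes were higher and 8.79% lower with APAP, 11.5% and 12.2% with Sofosbuvir, and 9.93% and 16.7% with Sucrose. Krtap3-2 had a log2 difference of 0.60 ± 0.56 (SE) with APAP, adjusted p = 0.653, and of 0.64 ± 0.64 with Sucrose against WT, adjusted p = 0.569, by edgeR with 2 libraries a group. The 2 Sucrose libraries (79.6 and 80.5 CPM) lay above both WT libraries (52.6 and 44.3 CPM). Fitted on the 8 libraries of set A alone, where only this member passed the filter, Krtap3-2 rose with Sucrose by 0.67 (log2), adjusted p = 0.0239 by edgeR, where 8.18% of all genes rose. In the fit of all libraries 6 of 6 adipocyte, 3 of 5 fibroblast and 3 of 6 muscle genes fell with Sucrose and 4 of 8 epidermal genes rose, and the part of this in the level of Krtap3-2 was not tested. For 7 members both APAP libraries were above all 4 WT and Sucrose libraries, at a share of 11.3% among all genes, and for 0 both were lower (13.2%). Among the 7, Krtap22-2, Krtap6-5, Krtap6-1, Krtap16-3 and Krtap17-1 had only 1 or 2 counts in each APAP library. A member with 0 counts in a reference library could not be lower. With Sofosbuvir 3 members had both libraries higher (16.2%) and 0 lower (15.1%), and with Sucrose 2 were higher (33.2%) and 2 lower (30.2%).

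In set B each drug was compared with the mean of the other 4, and no member passed in any of the 5 comparisons. Over all genes, 1.44% rose and 1.42% fell with Risedronate, 7.05% and 3.26% with Olanzapine, 2.06% and 3.24% with Alendronate, 1.16% and 0.355% with Asenapine, and 7.81% and 1.57% with Lurasidone. At an unadjusted p of 0.05, 17 members were higher with Risedronate, where 9.53% of all genes were, and 0 were lower (9.33%). In the other 4 comparisons 0 members passed at that p, where 9.62% of all genes were higher and 11% lower with Alendronate, 8.78% and 6.65% with Asenapine, 15.2% and 6.41% with Lurasidone, and 14.6% and 9.86% with Olanzapine. DESeq2 called 0 in all 5. The median log2 difference of the 36 members was 5.45 with Risedronate, 3.67 with Olanzapine, -3.28 with Alendronate, -3.24 with Lurasidone and -2.90 with Asenapine, against 0.01, 0.01, 0.00, 0.03 and 0.00 over all genes. The drugs share each other as controls, so the negative values stand on the same 2 high libraries. Krtap3-3 had the smallest adjusted p with Risedronate: its log2 difference was 3.85 ± 1.32 (SE), adjusted p = 0.108 by edgeR, from 194 and 1.07 CPM.

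Leaving out libraries changed these results in both directions. Without Risedronate replicate 1 the median of the members with Risedronate was -1.28 and 0 were called. Without both high libraries of the set, the medians with Risedronate and Olanzapine were 0. With CMCTween replicate 3, which belongs to no set B comparison, left out of the fit, 22 of 36 members rose with Risedronate (2.82% of all genes) and 4 with Olanzapine (8.19%): Krtap6-5, Krtap3-3, Krtap15 and Krtap3-1. In each of these groups 1 library was high and the partner's summed members were at 59.9 CPM (Risedronate) and 88.4 CPM (Olanzapine). That fit left CMCTween with 1 library, so the filter kept genes high in a single library. Most members tested had their highest remaining level in Risedronate replicate 1. Their calls with Risedronate therefore describe that library, and the share over all genes, not selected in this way, is not a like measure. Of 9 inner root sheath genes tested 5 rose with Risedronate, and 9 did so without CMCTween replicate 3 in the fit. Of 11 hair shaft keratins tested the counts were 0 and 8. Markers of other cell types moved as well in the fit without that library. With Olanzapine 5 of 6 adipocyte, 6 of 6 muscle and 5 of 5 fibroblast genes rose and 5 of 8 epidermal genes fell, and with Risedronate 6 of 6 muscle genes fell. The part of these shifts in the members' values was not tested.

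In set C each drug was compared with CMCTween, and members fell in all 8 comparisons. The numbers lower were 36 of 36 with Cisplatin (7.95% of all genes), 36 with Dox (6.79%), 31 with Aripiprazole (1.49%), 31 with EMPA (1.52%), 29 with Clozapine (0.896%), 25 with Repatha (1.37%), 22 with Lenalidomide (0.807%) and 13 with Teriparatide (0.905%). DESeq2 called fewer: 8 with Aripiprazole (1.27% of all genes), 7 with EMPA (1.67%), 5 with Cisplatin (5.39%), 5 with Dox (5.56%), 5 with Repatha (1.24%), 4 with Clozapine (0.346%), 3 with Lenalidomide (0.377%) and 1 with Teriparatide (0.48%). In edgeR fits of set C alone, with 25 members tested, 25 fell with Cisplatin (6.58%), 25 with Dox (5.63%) and 11 with Aripiprazole (0.402%). In those fits 0 fell with Clozapine (0.00935%), Repatha (0.00935%), Teriparatide (0.112%), EMPA or Lenalidomide (0% each). In the fit of all 36 libraries no member was higher, where 7.77%, 3.87%, 1.35%, 0.346%, 0.408%, 0.701%, 0.0976% and 1.18% of all genes were, in the same order. The 8 comparisons share the 2 CMCTween libraries, so the 223 calls in 288 tests are not independent of each other. With CMCTween replicate 4 as the only control, 0 of 36 members passed in each of the 8 by edgeR. Over all genes in that fit, 3.55% rose and 4.38% fell with Cisplatin and 1.78% and 6.75% with Dox. The shares were 0% and 0.0171% with Aripiprazole, 0% and 0.00854% with Clozapine and with Repatha, 0.0598% and 0% with Teriparatide, and 0% in both directions with EMPA and Lenalidomide.

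Krtap3-2 had counts in every library, but its 2 CMCTween values were far apart, at 1113 and 47.7 CPM. The SEs given for it use a spread estimated over all 18 groups, not from the CMCTween libraries alone. Against both CMCTween libraries its log2 difference was -4.57 ± 0.75 (SE) with Aripiprazole, -4.69 ± 0.74 with EMPA, -4.36 ± 0.76 with Repatha, -4.33 ± 0.72 with Clozapine, -4.05 ± 0.73 with Lenalidomide, -3.76 ± 0.72 with Cisplatin, -3.72 ± 0.71 with Teriparatide and -3.53 ± 0.70 with Dox. The adjusted p-values by edgeR ran from 0.000659 (Cisplatin) to 0.0229 (Lenalidomide). Against CMCTween replicate 4 alone the differences ran from -1.05 with EMPA to 0.10 with Dox, and none passed. By summed counts, the 61 counts of CMCTween replicate 4 were 2.166 times the Aripiprazole level (95% interval 1.47 to 3.21, counting error only) and 0.932 times the Dox level (0.661 to 1.31).

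Krtap8-1 had 4637 counts in the CMCTween libraries, 4599 of them in replicate 3. With Aripiprazole and with EMPA it had 0 counts, which put it at least 1507-fold and at least 1725-fold lower by the limit of 3 counts over the group. Against the 38 counts of replicate 4 alone the same limits were 22.9-fold and 26.3-fold. With Cisplatin it had 7 counts (8.57 and 0 CPM), with Dox 4, with Clozapine 4, with Repatha 3 and with Lenalidomide 9 (0 and 10.7 CPM). With Teriparatide it had 110 counts, 113 CPM in replicate 2 and 1.45 CPM in replicate 1, and was 29.3-fold lower than both CMCTween libraries (24.3 to 35.8, counting error only). That difference did not pass by edgeR, adjusted p = 0.0613, with the Teriparatide libraries far apart. Against replicate 4 alone it was higher, since replicate 4 held 0.446 times the Teriparatide level (0.300 to 0.651). Krtap3-3, at 3665 counts over CMCTween and 30 in replicate 4, had 1 count with Aripiprazole, 0 with Repatha, 4 with EMPA, 4 with Dox, 13 with Cisplatin, 15 with Clozapine, 15 with Lenalidomide and 85 with Teriparatide.

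The median log2 difference of the 36 members was -11.67 with Aripiprazole, -11.05 with EMPA, -10.89 with Repatha, -10.03 with Dox, -9.84 with Clozapine, -8.98 with Cisplatin, -8.29 with Lenalidomide and -5.15 with Teriparatide, against between -0.02 and 0.03 over all genes. With members at 0 counts placed at their bound, the medians were -8.13, -8.36, -7.79, -7.98, -8.39, -7.80, -7.96 and -5.15. Against CMCTween replicate 4 alone the medians were -5.11, -4.71, -4.32, -4.03, -3.71, -2.63, -1.88 and 1.07. With the same bound they were -2.87, -2.98, -2.59, -2.91, -3.04, -2.33, -1.82 and 1.07, over the 22 to 35 members above 3 counts on either side. By summed members, the set C drug libraries other than Teriparatide replicate 2 were below each CMCTween library. They lay within the 21.6 to 155 CPM that held 31 of the 36 skin libraries. Replicate 4 of CMCTween, at 294 CPM, was itself above that range and above the median of 62.7 CPM over the 35 libraries other than replicate 3. At an unadjusted p of 0.05 the members lower against replicate 4 were 14 with Aripiprazole (4.11% of all genes), 15 with EMPA (4.25%), 6 with Clozapine (3.18%), 3 with Dox (13% of all genes), 3 with Repatha (4.05%), 2 with Lenalidomide (3.55%), 1 with Cisplatin (11%) and 0 with Teriparatide (4.23%). With 1 control library, its spread was assumed to be that of the other groups.

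Counted without any test, both libraries of the drug were below both CMCTween libraries for 35 of the 36 members with Aripiprazole (28.8% of all genes), 35 with EMPA (16.4%), 34 with Clozapine (19.1%), 34 with Dox (22.5%), 33 with Cisplatin (24.8%), 33 with Repatha (29.3%), 33 with Lenalidomide (15.5%) and 1 with Teriparatide (18.7%). Against replicate 4 alone the numbers of members were the same, since replicate 3 was the higher of the CMCTween libraries for every member, but the shares over all genes were larger: 52% with Aripiprazole, 35.4% with EMPA, 40.7% with Clozapine, 39.3% with Dox, 40.9% with Cisplatin, 51.8% with Repatha, 37.4% with Lenalidomide and 37.5% with Teriparatide. Hair shaft keratins followed the members. Of the 11 tested, 10 fell with Aripiprazole, Cisplatin, Clozapine and EMPA, 11 with Dox, 9 with Repatha, 8 with Lenalidomide and 7 with Teriparatide, and 0 without CMCTween replicate 3. Of 9 inner root sheath genes tested, between 3 (Teriparatide) and 9 (Cisplatin) fell. Without that library 1 fell, with Cisplatin, and 1 rose with Dox, as it had with both controls. Of 10 regulators and shaft proteins tested 7 to 9 fell in each comparison, and of 5 pigment genes 1 or 2. Without CMCTween replicate 3 none of either list fell in any of the 8.

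Cisplatin libraries also differed in division genes. Of 8 cell division genes 7 fell with Cisplatin, and 3 did so against CMCTween replicate 4 alone, whereas in the other 7 comparisons of set C at most 1 fell, and 0 against replicate 4. The summed members were at 116 and 46.0 CPM in the Cisplatin libraries, inside the range of the other drugs of the set. Other cell types moved with Cisplatin too: 4 of 5 fibroblast genes fell (5 against replicate 4 alone), 2 of 4 sebaceous genes (3) and 2 of 8 epidermal genes (5). The part of these shifts in the members' values was not tested. Dox libraries had lower muscle, fat and fibroblast genes with either control, 6 of 6, 6 of 6 and 5 of 5, and the part of this shift in composition in the members' values was not tested.

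**Figure D4:**
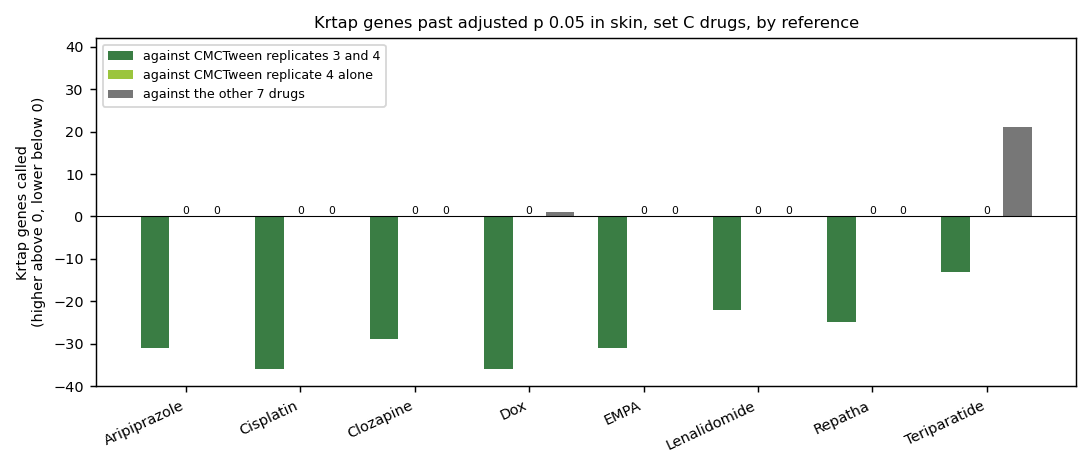
Number of Krtap genes past an adjusted p of 0.05 in skin for each set C drug, higher above 0 and lower below 0, against both CMCTween libraries, against CMCTween replicate 4 alone and against the other 7 drugs of the set. Against both libraries 13 to 36 genes fell, against replicate 4 alone 0 passed for all 8 drugs, and against the other drugs 21 rose with Teriparatide and 1 with Dox.

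With CMCTween left out altogether, each drug was compared with the other 7 drugs of the set, an alternative chosen after the values had been seen. Of the 25 members then tested, 21 rose with Teriparatide, where 5.40% of all genes did. The summed members were at 923 CPM in Teriparatide replicate 2 and 107 CPM in replicate 1, so the calls rest mainly on replicate 2. With Dox 1 member rose, Krtap3-2, by 0.76 (log2), adjusted p = 0.0233 by edgeR, where 14.8% of all genes rose. Its levels of 53.3 and 48.6 CPM with Dox lay above those of the other drugs except Teriparatide replicate 2 (57.2 CPM). For the other 6 drugs 0 of 25 passed.

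Outside skin the members were near 0. In 23 tissues and 832 libraries they had 457 counts in all, and 629 libraries had none. The highest level in any library was 12.3 CPM, 18.99% of the skin median taken over the 36 libraries. Testis had 144 counts of 25 members, lung 80, colon 36, stomach 25 and brain 19, and the other tissues 17 or fewer.

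Krtap17-1 had more counts outside skin than any other member. In lung it had 64 of the 80 member counts, in 23 of 36 libraries and in all 3 sets, with a pooled level of 1.46 CPM and a highest level of 5.24 CPM (EMPA replicate 2). In testis it had 43 of 144 counts, also in 23 of 36 libraries, with a pooled level of 0.845 CPM. In skin it was 8.58 CPM on average, but at a median of 0.784 CPM over the 35 libraries without CMCTween replicate 3. Keratin 5 and keratin 14, the basal keratins of stratified epithelium, together had a median of 1.85 CPM in lung and 0.330 CPM in testis.

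Other members stood out by tissue at the level of single counts. Stomach, part of which is lined by stratified epithelium in the mouse, had 12 counts of Krtap3-2 in 8 libraries beside a median of 284 CPM of keratins 5 and 14. Thymus had 8 counts of Krtap3-3, colon 15 of Krtap3-1 in 11 libraries, and pituitary 11 counts of Krtap16-1 of 13 member counts. Krtap13, with no count in skin, had 8 counts in 7 colon libraries. At these counts no order between tissues was read.

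In a few libraries outside skin the counts were spread over several members. The brain library of CMCTween replicate 3 had 15 counts spread over 13 members (12.3 CPM), beside 8 counts of hair shaft keratins, while keratins 5 and 14 were at 1.65 CPM. The muscle library of CMCTween replicate 4 had 11 counts over 10 members (8.99 CPM), and the colon library of CMCTween replicate 4 had 10 counts over 8 members (10.98 CPM). Libraries of other treatments showed such a spread too. The lung library of Teriparatide replicate 2 had 7 counts over 6 members (8.73 CPM), with keratins 5 and 14 at 16.2 CPM. The testis library of Clozapine replicate 3 had 9 counts over 7 members (4.56 CPM). The adrenal library of Alendronate replicate 1 had 5 counts over 5 members (6.78 CPM). Leaving Krtap17-1 aside, the CMCTween libraries held 70 of 342 member counts outside skin (20.5%) while holding 4.46% of all counts there. Replicate 3 had 30 of these and replicate 4 had 40. In skin, CMCTween replicate 3 had 16.4 member counts for each count of keratins 5 and 14, and CMCTween replicate 4 had 0.107. Whether these counts came from skin, hair or shared library handling was not tested.

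**Figure D5:**
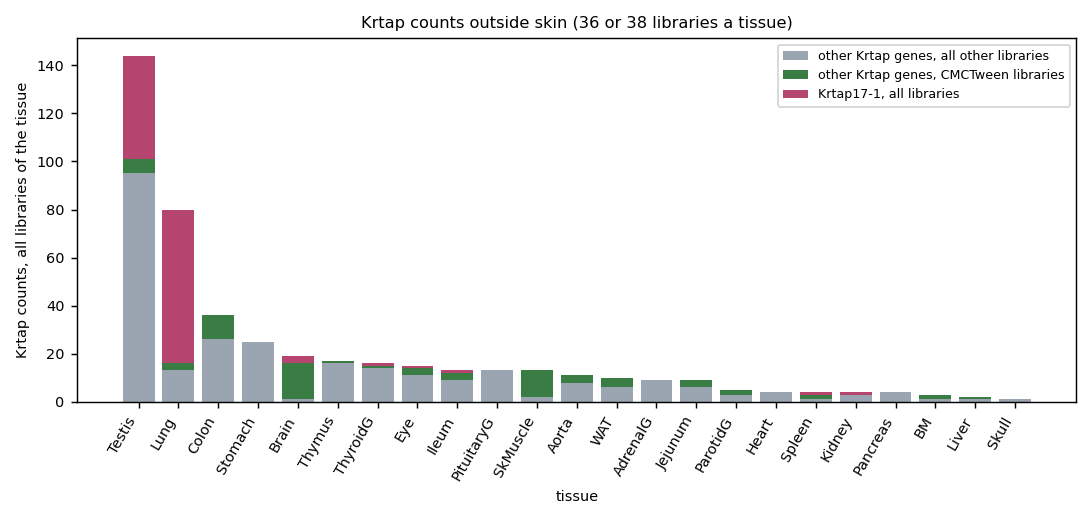
Krtap counts summed over all libraries of each tissue other than skin, with Krtap17-1 shown apart and the other members split into CMCTween and remaining libraries. Krtap17-1 makes up 64 of 80 counts in lung and 43 of 144 in testis, and the CMCTween libraries hold 15 of the 16 other counts in brain.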

How the data were processed

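Read counts per gene symbol were used as the authors deposited them, for 24421 symbols in 868 libraries of 24 tissues. Libraries were made from the 3′ ends of messenger RNA, per the labels' protocols. Per the submitters' processing notes, bcl2fastq 2.17, TopHat2 2.1.1, HTSeq 0.9.1 and mm10 were used. The annotation and the strand setting are not given in the sources used here. CPM values were computed here from the deposited counts and the column sums.

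The members, lists and library sets were chosen with earlier results of these data known. Class was assigned from family names. Counts were tested with edgeR 4.0.16 (R 4.3.3; quasi-likelihood F test, TMM factors, filterByExpr with a minimum count of 10) in 1 fit of 36 libraries and 18 groups with 18 residual degrees of freedom, and p-values were adjusted by Benjamini-Hochberg with a threshold of 0.05. All 18 groups shared the estimate of spread because each has 2 libraries. DESeq2 1.42.0 was an alternative, as were no filter, a fit of each set alone, other references, a replicate block and each library left out.

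Named genes were the 10 members with the highest mean CPM, up to 5 called members of largest change in each direction and comparison, members with no count in skin, the highest member of each class and chromosome, members among the 3 highest of another tissue, 2 to 4 examples of each list and the 10 genes most like the members. Further genes singled out in the text were chosen after their values were seen. Skin libraries held 638084 to 12811780 counts, so 1 count is worth more CPM in the shallower ones. Intervals and limits from 3 counts cover counting error only.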

Additional observations from a re-analysis of the deposited data

How the results depend on the processing

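The counts of Krtap genes past the threshold depended on the filter, the reference and single libraries. With no filter on low counts, and 52 genes tested, the numbers were 1 (APAP), 6 (Sofosbuvir), 1 (Alendronate, lower), 38 (Risedronate), 2 (Lurasidone, lower), 21 (Olanzapine), 47 (Aripiprazole, Cisplatin, Clozapine, Dox and EMPA) and 44 (Lenalidomide, Repatha and Teriparatide). Of all 19683 genes in that fit, in the same direction, 343 (APAP), 530 (Sofosbuvir), 588 (Alendronate), 469 (Risedronate), 279 (Lurasidone) and 931 (Olanzapine) passed, and between 283 (Lenalidomide) and 1047 (Cisplatin) fell with the set C drugs. Fitted on each set alone they were 1 (Sucrose), 6 (Risedronate), 11 (Aripiprazole), 25 of 25 (Cisplatin and Dox) and 0 (Clozapine, EMPA, Lenalidomide, Repatha and Teriparatide), with fewer genes tested. Of all genes 814 of 9953 rose with Sucrose and 120 of 9352 with Risedronate, and of 10695 in set C 43 (Aripiprazole), 704 (Cisplatin), 602 (Dox) and at most 12 (the other 5) fell. DESeq2 gave 8 (Aripiprazole), 5 (Cisplatin), 4 (Clozapine), 5 (Dox), 7 (EMPA), 3 (Lenalidomide), 5 (Repatha) and 1 (Teriparatide), where between 44 (Lenalidomide) and 608 (Cisplatin) of all genes fell. Against all other groups of set C all 8 drugs gave 0. Against the other 7 drugs alone, an alternative chosen after seeing the data, 6 gave 0, Dox gave 1 and Teriparatide 21, both higher; Teriparatide gave 20 without replicate 1 and 0 without replicate 2. With CMCTween replicate 3 out of the fit, also chosen after seeing the data, Risedronate gave 22 and Olanzapine 4. Leaving out in turn each library of the groups compared changed the counts for the set C drugs but not those for sets A and B. Of the libraries outside the groups compared, only CMCTween replicate 3 was left out, as given above. With 1 library in a group the filter keeps genes high in a single library, so up to 48 genes were tested.

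Krtap3-2, lower than CMCTween with each set C drug, kept its call in 45 alternatives, lost it in 38 and changed direction in 7. It was lost in 19 fits that left out 1 library, in the fit of set C alone for 5 drugs, with the replicate block for EMPA (adjusted p = 0.0674 by edgeR) and Teriparatide (0.147), and in 12 comparisons with the other groups or drugs of the set. Against the other 7 drugs it was 0.42 (Cisplatin), 0.76 (Dox), 0.082 (Lenalidomide) and 0.46 (Teriparatide), and 0.83 without Teriparatide replicate 1. With Dox it was 0.16 against all other groups and ran from -4.54 to 0.10 over the fits with each library left out, the latter without CMCTween replicate 3. The cause of these changes was not tested.

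The replicate numbers gave no clear pairing of the libraries: of 30 pairs with the same number 9 had deviations correlated above 0.1, and the correlations ran from -0.37 to 0.22. With 2 libraries a group, groups that share both numbers give the same correlation for each number, so the 30 values are not all distinct. With the replicate block the number lower was 1 (Aripiprazole), 36 (Cisplatin, Clozapine, Dox and Repatha), 31 (Lenalidomide) and 0 (EMPA and Teriparatide). Of all 11274 genes 14 fell with Aripiprazole, 5 with EMPA, 4 with Teriparatide, 87 with Lenalidomide, 119 with Clozapine, 139 with Repatha, 706 with Dox and 782 with Cisplatin. Depth limits the low members: 1 count in the shallowest skin library is more than 1 CPM, and members with few counts could not be compared.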
